A study of Mus musculus with 6 samples.

Results

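The cytosolic ribosome of the mouse is built from a large and a small subunit, and the genes of its proteins carry Rpl and Rplp symbols (large subunit) or Rps symbols and Rpsa (small subunit). Rows of the deposited counts table were taken as members where the symbol was one of these names followed by a number (with an optional a or x), or Rps27l, Rplp0 to Rplp2 or Rpsa. The rule found 77 of the 23420 gene symbols in the table, 46 of the large and 31 of the small subunit, and used no measured value. Genes such as Fau, Gnb2l1 (Rack1) and Rps3a1, whose products also belong to the ribosome but whose symbols differ, fell outside the rule and are given separately.

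Pancreatic islets of C57BL/6J mice were compared after gastric infusion for 9 days. The OIO group, named for overfeeding-induced obesity, received the liquid diet Ensure at 13 to 18.5 kcal per day, and the Control group received saline over the same 9 days. Each group had 3 libraries of poly(A) RNA. The labels give neither sex nor age and do not say whether each library came from separate animals or a pool, so a p-value sets a difference against the spread between libraries alone, and that spread may be technical. Both groups carried the infusion, and the labels name no transgene or deletion in either.

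Ribosomal proteins are made in near-equal numbers, since each mature ribosome holds a single copy of most of them, the acidic stalk proteins Rplp1 and Rplp2 excepted. Their mRNAs belong to the TOP class, which begins with a C followed by a run of pyrimidines, and mTORC1 signalling controls the translation of this class through that run. In pancreatic beta cells, insulin is a major product of translation, and feeding is known to act on translation there. An mRNA level of a ribosomal protein gene therefore measures neither the number of ribosomes nor their activity.

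The start of the transcript is shown for members that the results below turn on, because the TOP run sits there. Each window holds 15 bases before and 15 from the annotated start on the transcribed strand, 5′ to 3′, from RefSeq on GRCm38.p6. Capitals mark a C followed by at least 4 bases that are each C or T, where this run begins within 5 bases of the annotated start, and a window in lower case has none. The first 4 hold such a run and belong to genes that passed the test below, and the fifth is the paralog of Rps27l. The last 4 have none, and of these Rplp0 and Rpl41 also passed, while Rpl9 and Rpl5 did not. Rps27l has another annotated start, with its window at chr9:66946398-66946427, which holds no run and is not shown.
Rpl28 (chr7:4792950-4792979, + strand): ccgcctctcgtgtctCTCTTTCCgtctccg
Rpl7a (chr2:26910792-26910821, + strand): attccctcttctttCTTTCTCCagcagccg
Rps2 (chr17:24720048-24720077, + strand): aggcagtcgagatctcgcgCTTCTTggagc
Rps27l (chr9:66946071-66946100, + strand): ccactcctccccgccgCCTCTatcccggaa
Rps27 (chr3:90213634-90213663, - strand): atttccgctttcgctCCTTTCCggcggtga
Rplp0 (chr5:115559452-115559481, + strand): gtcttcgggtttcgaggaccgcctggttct
Rpl41 (chr10:128549154-128549183, - strand): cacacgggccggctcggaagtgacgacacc
Rpl9 (chr5:65391417-65391446, - strand): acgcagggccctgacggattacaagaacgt
Rpl5 (chr5:107900513-107900542, + strand): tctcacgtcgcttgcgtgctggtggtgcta

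A RefSeq start was matched for 57 of the 77 members, some with several starts, 68 in all. A run as defined was found at 30 of these 68 starts (44.1%), beside 18.5% of the starts of other coding genes and 18.3% of all 32851 starts in the same table. Rplp0 and Rpl9 hold no such run at the annotated start, which says only that these letters are not in this window. Of the members with a window, a run was found in 7 of 12 that passed the test below and in 20 of 43 that were tested and did not pass. In the promoter windows of 250 bases before to 50 after the start, read on both strands, CCGGAAG, the core of ETS-family sites, occurred at 36.8% of member starts, 11.5% of the starts of other coding genes and 8.9% of all starts. AAGATGGC, the core of the YY1 motif, occurred at 10.3%, 3.0% and 2.7% of these, and GGGCGG, the GC box, at 60.3%, 46.2% and 35.7%. TATAAA, the TATA box, occurred at 8.8%, 12.6% and 13.6%. None of the 4 words contains another, but they can overlap at their ends.

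Libraries held between 20968058 and 48178375 counts, both extremes in the OIO group. The islet identity of the samples was checked on 12 endocrine markers, among them Ins1, Ins2, Gcg and Chga, whose summed level was 313853 to 346120 CPM (counts per 1000000 counts of the scaled library) in OIO and 285679 to 305783 CPM in Control, with none of the 12 at 0. These endocrine sums did not overlap, but the median log2 fold change of the 12 markers was -0.00075, and 6 of them lay above 0. The 18 acinar markers summed to 4069.7 to 9599.5 CPM in OIO and 3422.1 to 11117 CPM in Control, with Amy2a5 at 0 in every library. The 8 duct markers summed to 437 to 550 CPM in OIO and 373 to 384 CPM in Control, without overlap. Krt7 (202 to 234 and 175 to 177 CPM) and Spp1 (128 to 233 and 95.6 to 107 CPM) made up most of these sums. The median log2 fold change of the 8 was 0.04, with 4 above 0, so the sums do not show a rise of duct markers in general. The 18 leukocyte markers summed to 622 to 742 and 535 to 658 CPM, the 10 endothelial markers to 774 to 880 and 798 to 809 CPM, and the 11 stromal markers to 286 to 477 and 333 to 783 CPM. Of those tested, 13 of 16 leukocyte markers lay above 0 (median 0.21), and 6 of 10 endothelial markers (0.07). Only 4 of 15 acinar markers (-0.13) and 1 of 11 stromal markers (-0.46) did. Without Control replicate 3 the stromal median was 0.06. Control replicate 1 stood apart in the ribosomal protein genes, as described below, and the counts over members are also given without it.

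Several ribosomal protein mRNAs were more abundant in islets of overfed mice, each by a small amount. Of the 75 members tested, 15 rose and none fell at an adjusted p under 0.05 in edgeR's quasi-likelihood test, and the other 60 did not pass. The 15 were 20.0% of the members tested, beside 4.54% of all 14903 genes tested that were called higher and 2.84% that were called lower. Among the 5478 genes at least as expressed as the lowest member above 1 CPM, 6.39% were called higher. The median log2 fold change of OIO over Control was 0.13 for the members and -0.01 for all genes, and 93.3% of the members lay above 0 against 47.5% of all genes. The members ranged from -0.13 for Rpl9 to 0.44 for Rpl41. In bulk RNA, a change in the mix of cells and a change in RNA per cell cannot be told apart.

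Genes of both subunits rose. In the large subunit 9 of 44 tested members rose (20.5%) and the median log2 fold change was 0.14, while in the small subunit 6 of 31 rose (19.4%) and the median was 0.13. The groups were separate, with OIO higher, in 30 of the 75 members (40.0%), 17 of the large and 13 of the small subunit, beside 14.1% of all genes tested. No member was separate with OIO lower, against 15.1% of all genes. The number that rose was 6, 8 and 7 without OIO replicates 1, 2 and 3, and 6, 6 and 16 without Control replicates 1, 2 and 3. The share of all genes called higher was 2.66%, 2.23% and 2.35% without OIO replicates 1, 2 and 3, and 2.92% and 3.40% without Control replicates 2 and 3. Without Control replicate 1, 5 large and 1 small subunit genes rose, 7.89% of the 76 members tested beside 3.70% of all genes. The subunit medians were then 0.07 and 0.06, the median of all members 0.07, and 69.7% of the members lay above 0 beside 47.5% of all genes. The groups without that library were separate with OIO higher in 30 members (40.0%, beside 19.2% of all genes), 17 large and 13 small, and with OIO lower in 5 (6.67%, beside 20.2%). Control replicate 1 was the lowest library in 66 of the 73 members above 1 CPM. Leaving out the lowest Control library can neither undo nor add a separation with OIO higher. The count of 30 therefore cannot show whether the separation depends on that library. Scaling by library totals alone moved the median of all genes to -0.08. Calls over all genes went from 676 higher and 423 lower to 498 higher and 1113 lower. With that scaling 5 large and 2 small subunit genes rose, and none was lower. The median of the members was then 0.06, and 78.7% of them lay above 0 beside 34.4% of all genes.

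**Figure D1:**
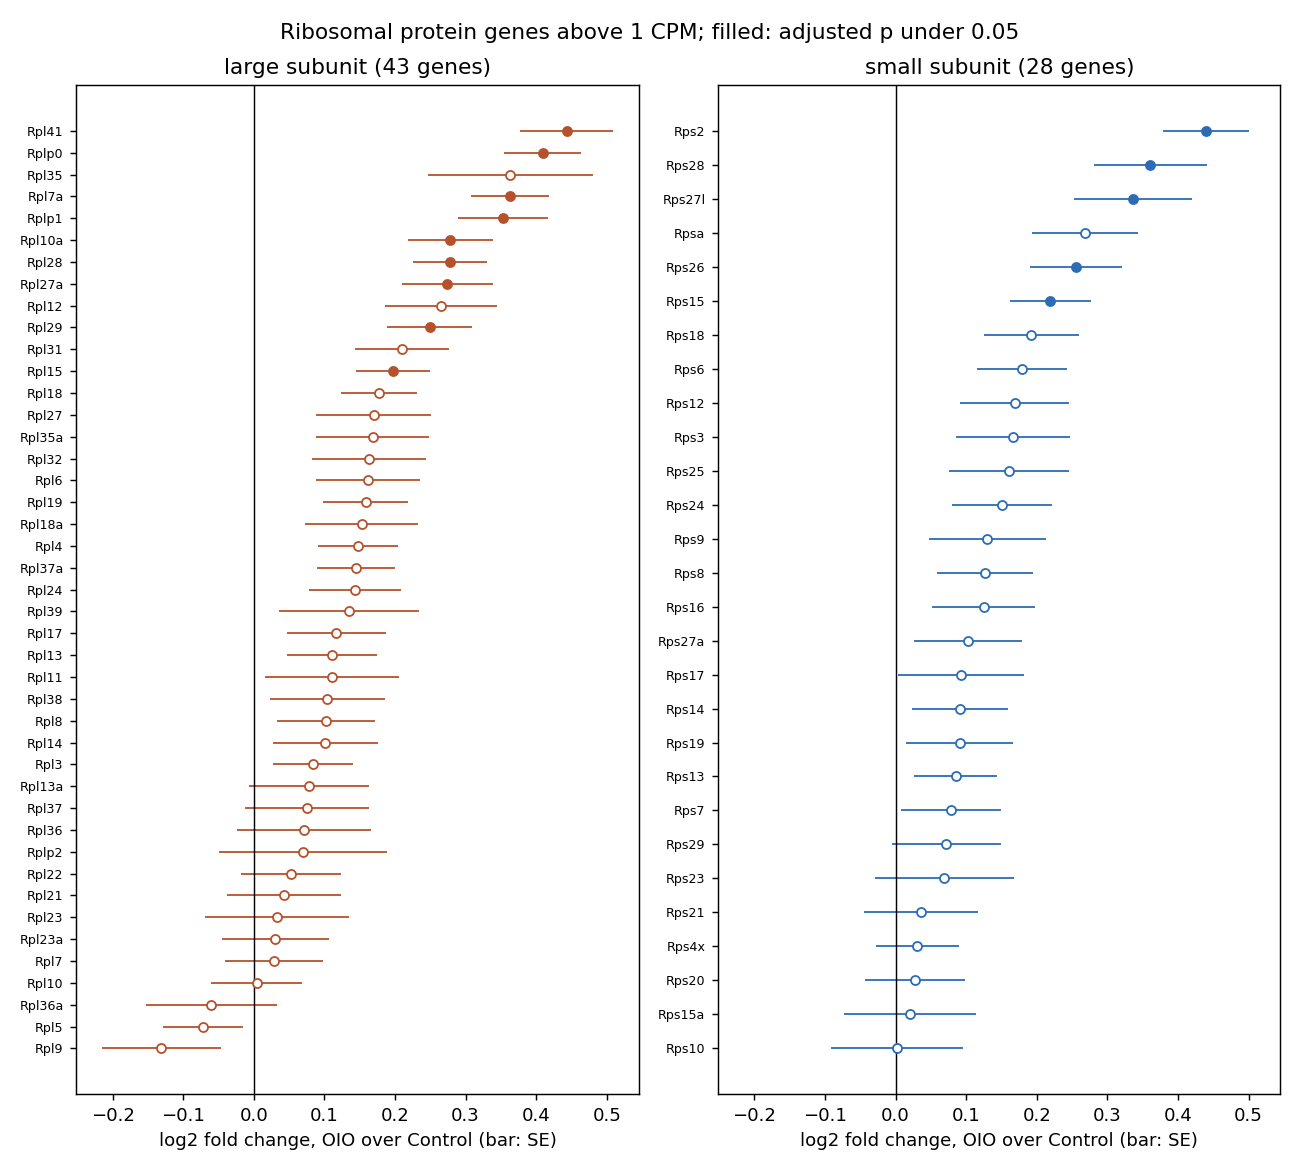
Log2 fold change of OIO over Control (x axis) with its SE for the 43 large subunit (left) and 28 of the small subunit members (right) above 1 CPM in every library, ordered by fold change. Filled points passed an adjusted p of 0.05, and they lie between 0.20 and 0.44, while Rpl9, Rpl5 and Rpl36a lie below 0.

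The summed level of the large subunit genes was 10162, 10280 and 10424 CPM in the OIO libraries and 8475.5, 9648.1 and 9628.4 CPM in the Control libraries. That of the small subunit genes was 6800.4, 6880.8 and 7026.1 CPM in OIO and 5626.5, 6345.2 and 6651.9 CPM in Control. The groups did not overlap in either sum, and Control replicate 1 was the lowest of the 6. The ratio of the OIO mean to the Control mean was 1.11 for each subunit, and without Control replicate 1 it was 1.07 for the large and 1.06 for the small subunit. The large subunit sum divided by the small subunit sum was 1.49, 1.49 and 1.48 in OIO and 1.51, 1.52 and 1.45 in Control. The mean of this ratio was 1.49 ± 0.01 (SD, n = 3) in OIO and 1.49 ± 0.04 (SD, n = 3) in Control, and the groups overlapped. As a share of all counts, the members made up 1.69%, 1.69% and 1.67% in OIO and 1.42%, 1.66% and 1.66% in Control, so that the shares without Control replicate 1 differed by little between the groups.

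**Figure D2:**
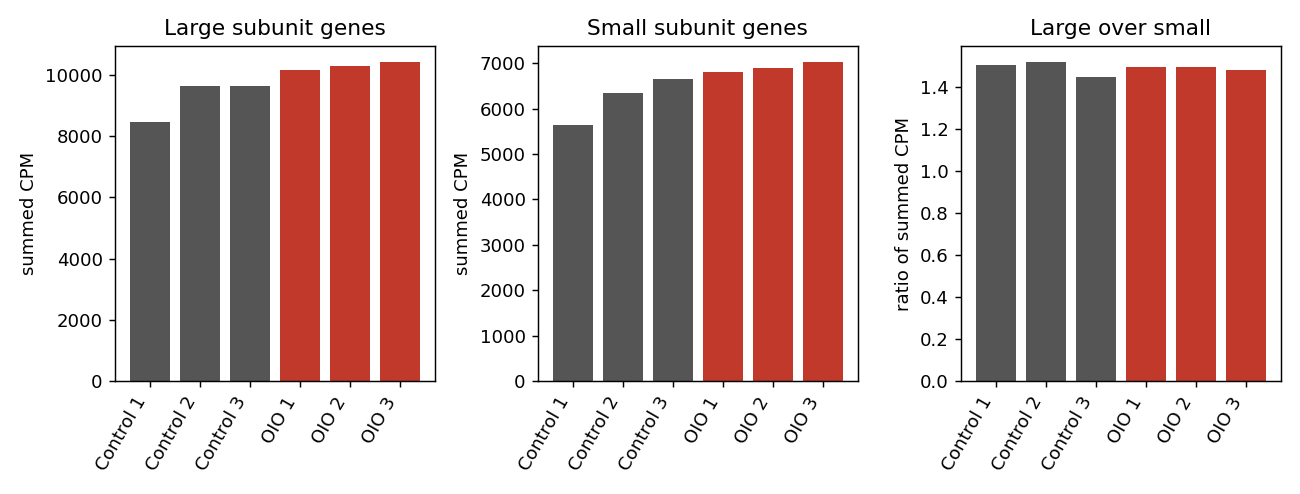
Summed CPM of the large and of the small subunit genes and the ratio of these sums, as 1 bar per library, Control in grey and OIO in red. Control replicate 1 has the lowest sum in both subunits, while the ratio lies between 1.45 and 1.52 in all 6 libraries.

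Control replicate 1 was the lowest of the 6 libraries in 66 of the 73 members above 1 CPM in every library (90.4%), beside 16.0% of the 13022 tested genes above that level. In the other 7 members the lowest library was Control replicate 2. The highest library was OIO replicate 3 in 26 members, OIO replicate 1 in 15, Control replicate 3 in 13, Control replicate 2 in 10 and OIO replicate 2 in 9. Relative to the Control mean, the members' mean log2 level was 0.15, 0.15 and 0.17 in the OIO libraries and -0.13, 0.04 and 0.09 in the Control libraries. Control replicate 1 also held the highest acinar marker sum, 11117 CPM against 6047.7 and 3422.1 CPM in the other Control libraries. OIO replicate 1 held 9599.5 CPM of the same markers, and its ribosomal protein sum of 16962 CPM was close to those of the other OIO libraries, at 17161 and 17450 CPM. The part of the acinar RNA in the low members of Control replicate 1 was not tested.

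**Figure D3:**
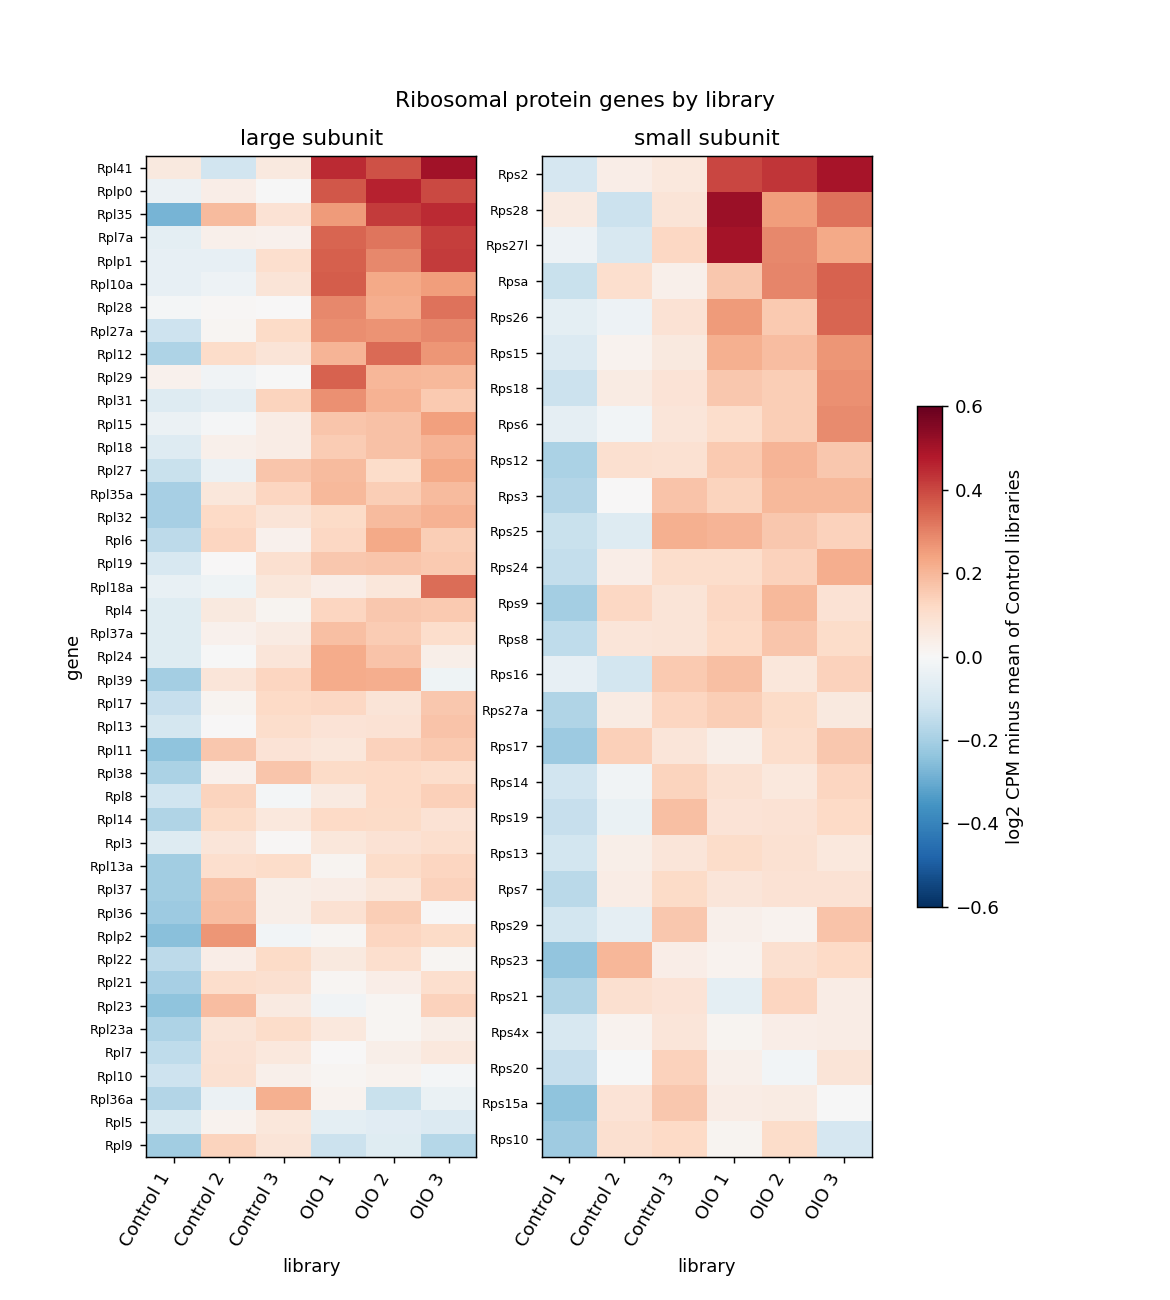
Log2 CPM minus its mean over the Control libraries (colour), by library (columns), for 43 large and 28 small subunit members above 1 CPM, ordered by fold change. The column of Control replicate 1 is the lowest in most rows, and the upper rows are higher in all 3 OIO libraries.

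Of the genes that rose, 6 passed whichever of the 6 libraries was left out and in each of the 11 other settings run. These were Rplp0, Rps2, Rpl41, Rpl7a, Rplp1 and Rpl28. Rplp0, which anchors the acidic stalk that recruits translation factors to the large subunit, had 498, 529 and 505 CPM in OIO and 375, 396 and 383 CPM in Control. The groups were separate by 102 CPM. Its level was 511 ± 16.5 CPM (SD, n = 3) in OIO and 385 ± 10.4 CPM in Control, a log2 fold change of 0.41 (SE 0.05, edgeR adjusted p = 0.0024). Rplp0 lies at chr5:115559467-115563727 on GRCm38, per GENCODE M21, as do the positions that follow.

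Rplp1, which forms the stalk in a dimer with Rplp2, had 418, 399 and 437 CPM in OIO and 316, 315 and 350 CPM in Control. No OIO value fell into the Control range, and Control replicate 3 was the highest of its group. The log2 fold change was 0.35 (SE 0.06, edgeR adjusted p = 0.011, chr9:61913284-61914542). Its partner Rplp2 had 160, 174 and 172 CPM in OIO and 134, 191 and 158 CPM in Control. Its Control libraries enclosed all OIO libraries, and the log2 fold change was 0.07 (SE 0.12, edgeR adjusted p = 0.78). Rpl12, at the base of the stalk, had a log2 fold change of 0.27 that also did not pass (edgeR adjusted p = 0.074). Across the stalk and its base, 2 of 4 genes rose, beside 20.0% of the members tested and 4.54% of all genes. The grouping was drawn up after the values were seen, and 4 genes are too few to tell its share from that of the members.

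Rps2 lines the entry channel of the mRNA on the small subunit. It had 348, 355 and 371 CPM in OIO and 246, 271 and 275 CPM in Control. The lowest OIO library exceeded the highest Control library by 73.1 CPM, and the log2 fold change was 0.44 (SE 0.06, edgeR adjusted p = 0.0028, chr17:24718116-24721929). Its neighbour in the channel, Rps3, had a log2 fold change of 0.17 (SE 0.08) with an edgeR adjusted p of 0.25.

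Rpl41 encodes a very short, highly basic peptide of the large subunit that lies at the interface of the subunits. It had 496, 474 and 516 CPM in OIO and 379, 335 and 378 CPM in Control. There was no overlap between groups, and Control replicate 2, not Control replicate 1, was the lowest library. Its log2 fold change of 0.44 (SE 0.07, edgeR adjusted p = 0.0047, chr10:128548114-128549305) was the highest of the members. Rpl7a, whose gene also hosts small nucleolar RNAs in its introns, had 353, 347 and 370 CPM in OIO and 267, 283 and 283 CPM in Control. The values did not overlap, and the log2 fold change was 0.36 (SE 0.06, edgeR adjusted p = 0.0051, chr2:26910764-26913318). Rpl28, a large subunit protein that has no counterpart in budding yeast, had 195, 185 and 200 CPM in OIO and 158, 160 and 160 CPM in Control. The Control libraries lay close together and apart from OIO, and the log2 fold change was 0.28 (SE 0.05, edgeR adjusted p = 0.012, chr7:4792874-4795066).

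**Figure D4:**
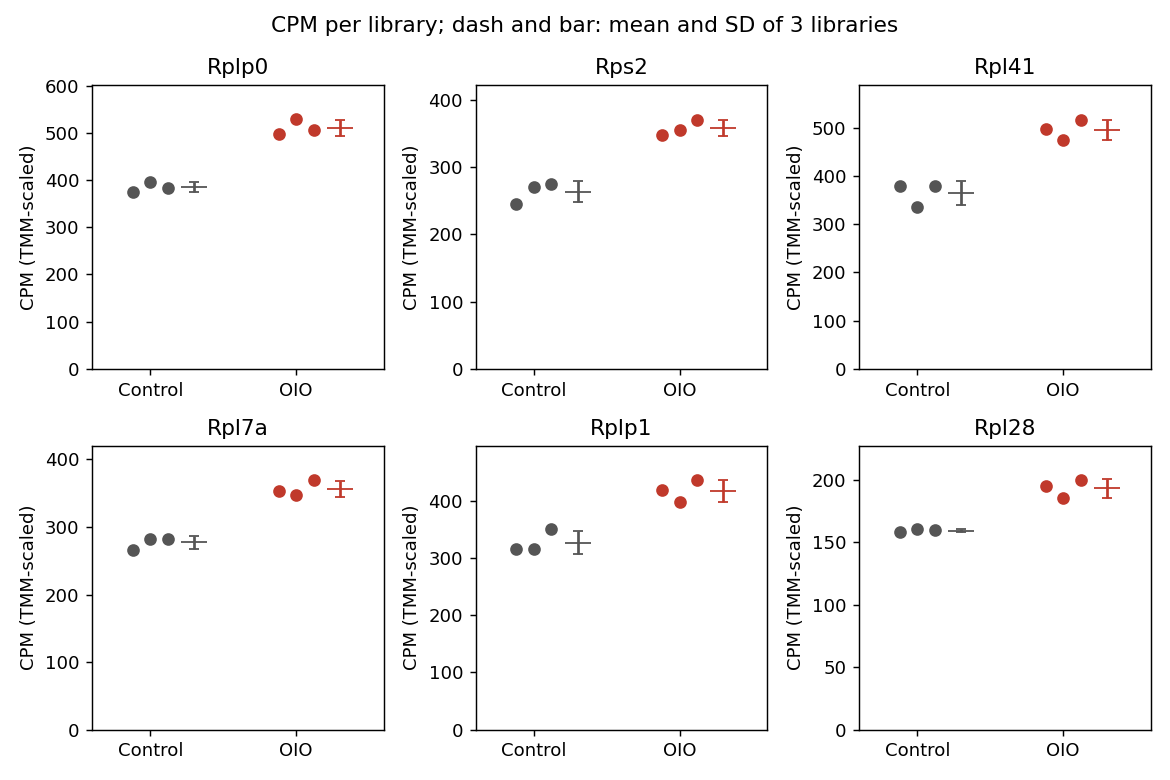
CPM on TMM-scaled library sizes (y axis, from 0) of Rplp0, Rps2, Rpl41, Rpl7a, Rplp1 and Rpl28 in the 3 Control and 3 OIO libraries (points), with mean and SD at the side. In all 6 genes each OIO library lies above each Control library.

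The other 9 genes that rose passed in 0 to 2 of the 6 fits with a library left out, and their highest edgeR adjusted p there was 0.071 to 0.138. Rpl10a and Rps28 passed without OIO replicate 2 and without Control replicate 3, Rps27l without OIO replicate 3 and without Control replicate 3, and Rpl27a, Rps26 and Rps15 without Control replicate 3 alone. In the large subunit these were Rpl10a, Rpl27a, Rpl29 and Rpl15. Rpl10a, a protein of the flexible L1 stalk beside the exit site of the tRNA, had 82.2, 74.9 and 76.2 CPM in OIO and 61.9, 62.7 and 67.5 CPM in Control, a log2 fold change of 0.28 (SE 0.06, edgeR adjusted p = 0.022). Rpl27a had 176, 174 and 177 CPM in OIO and 133, 146 and 157 CPM in Control, a log2 fold change of 0.27 (SE 0.06, edgeR adjusted p = 0.030). The groups were separate in both, with the Control libraries of Rpl27a more widely spread than its OIO libraries. Rpl29 had 67.6, 60.8 and 60.6 CPM in OIO and 53.9, 52.1 and 52.8 CPM in Control, a log2 fold change of 0.25 (SE 0.06, edgeR adjusted p = 0.033). Rpl15 had 119, 120 and 126 CPM in OIO and 103, 105 and 109 CPM in Control, a log2 fold change of 0.20 (SE 0.05, edgeR adjusted p = 0.048). Both were separate between the groups, and neither passed in any fit with 5 libraries.

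In the small subunit they included Rps28, Rps26, Rps15 and Rps27l. Rps28 and Rps26 sit where the mRNA leaves the subunit. Rps28 had 78.1, 65.2 and 68.6 CPM in OIO and 56.8, 50.1 and 57.7 CPM in Control, a log2 fold change of 0.36 (SE 0.08, edgeR adjusted p = 0.025). Rps26 had 152, 142 and 162 CPM in OIO and 122, 125 and 135 CPM in Control, a log2 fold change of 0.26 (SE 0.06, edgeR adjusted p = 0.041). OIO replicate 1 was the highest library for Rps28 and OIO replicate 3 for Rps26, and neither gene overlapped between the groups. Rps15, near the decoding centre, had 257, 252 and 266 CPM in OIO and 209, 225 and 231 CPM in Control, a log2 fold change of 0.22 (SE 0.06, edgeR adjusted p = 0.045). It was separate between the groups, with Control replicate 1 the lowest library.

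Rps27l is the paralog of Rps27 and is known as a target of p53. It had 57.1, 49.4 and 47.3 CPM in OIO and 39.6, 37.9 and 44.1 CPM in Control, a log2 fold change of 0.34 (SE 0.08, edgeR adjusted p = 0.039, chr9:66946086-66949516). The groups were separate, with OIO replicate 1 the highest library and a gap of 3.24 CPM between the closest pair. Rps27 itself was listed at 0.62, 0.44 and 0.66 CPM in OIO and 0.44, 0.82 and 0.60 CPM in Control, from 13 to 32 counts per library, and its log2 fold change of -0.13 (SE 0.36) had an edgeR adjusted p of 0.87. Of the 31-base words in the transcripts of Rps27, 50.1% also occurred in other genes of GENCODE M21 and 49.8% in the retrogene copy Rps27rt, and reads that fit both can be assigned to either. The part of this sharing in the low counts of Rps27 was not tested.

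Another 3 members were near 0 as well. Rpl26 had no count in any library, which at the limit of 3 counts allows up to 0.0623 CPM in the deepest and 0.143 CPM in the shallowest library. Rpl34 had 8 to 10 counts per library and was removed with Rpl26 by the filter on low counts, and Rpl30 had 5 to 13 counts and was tested. All 3 encode core proteins of the large subunit of the ribosome. In their transcripts 50.2% (Rpl26), 14.5% (Rpl34) and 78.2% (Rpl30) of the 31-base words occurred in other genes, and the cause of the low counts was not tested. The 73 other members exceeded 1 CPM in every library.

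Several members with large counts did not pass. Rpl4, which lines the tunnel through which the new peptide leaves, had 826, 845 and 843 CPM in OIO and 718, 787 and 764 CPM in Control, a log2 fold change of 0.15 (edgeR adjusted p = 0.15). Rps24 had 530, 542 and 573 CPM in OIO and 447, 506 and 530 CPM in Control, a log2 fold change of 0.15 (edgeR adjusted p = 0.23). Rpsa, which also serves as a laminin receptor at the cell surface, had 414, 454 and 472 CPM in OIO and 337, 397 and 378 CPM in Control, a log2 fold change of 0.27 (SE 0.07) with an edgeR adjusted p of 0.058. In these 3 genes the groups did not overlap, by 0.58 CPM in Rps24. Among the others nearest to the threshold were Rpl18 (log2 fold change 0.18, edgeR adjusted p = 0.075), Rpl31 (0.21, 0.085) and Rps18 (0.19, 0.12). Rpl35 had a log2 fold change of 0.36, as large as that of Rpl7a, but with an SE of 0.12 and an edgeR adjusted p of 0.11. Of the 31-base words of Rpl35, 99.0% occurred in at least 1 of 21 other genes, the most among the members above 1 CPM. The gene that shared most of them, Wdr38, held 61.9%.

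Among the members above 1 CPM, the lowest fold changes were found in Rpl9, Rpl5, Rpl36a, Rps10 and Rpl10. Rpl9 had 250, 259 and 242 CPM in OIO and 236, 299 and 287 CPM in Control, a log2 fold change of -0.13 (SE 0.08, edgeR adjusted p = 0.40, chr5:65388364-65391444). Control replicate 1 was the lowest library of all 6, while the other Control libraries lay above the OIO libraries. Rpl5, which forms the 5S ribonucleoprotein with Rpl11 and binds Mdm2 when free of the ribosome, had 236, 234 and 232 CPM in OIO and 231, 250 and 258 CPM in Control, a log2 fold change of -0.07 (SE 0.06, edgeR adjusted p = 0.50). Its partner Rpl11 had a log2 fold change of 0.11 (SE 0.10, edgeR adjusted p = 0.54). Rpl36a had -0.06 (edgeR adjusted p = 0.76) and Rps10 0.00 (edgeR adjusted p = 0.99).

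The X chromosome carries 4 of the members, Rpl10, Rpl36a, Rpl39 and Rps4x, and none of the 4 passed. Of all members tested 20.0% rose, and 4 genes are too few to tell these shares apart. Rpl10, which joins the large subunit late and completes its peptidyl transferase region, had 416, 418 and 409 CPM in OIO and 378, 440 and 421 CPM in Control, a log2 fold change of 0.00 (edgeR adjusted p = 0.98). Rps4x had 373, 378 and 380 CPM in OIO and 345, 374 and 388 CPM in Control, a log2 fold change of 0.03 (edgeR adjusted p = 0.81). In both genes the OIO libraries lay within the range of the Control libraries. Rpl39, a small protein in the wall of the exit tunnel, had a log2 fold change of 0.14 (SE 0.10, edgeR adjusted p = 0.46). Of the genes at the exit tunnel, Rpl39 included, none of the 8 tested rose, beside 20.5% of the large subunit. With 8 genes these shares cannot be told apart. All 8 had a log2 fold change above 0, and 4 were separate between the groups with OIO higher. Their median of 0.14 was that of the large subunit as a whole.

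Levels were compared between genes only per kilobase, as CPM divided by the median length of the coding transcripts in GENCODE M21. Members were ordered by the mean over all 6 libraries. Rps24 was the highest on this scale, at 1045 ± 42.0 CPM per kilobase (SD, n = 3) in OIO and 941 ± 81.2 in Control. Rpl41 had 941 ± 39.6 in OIO and 692 ± 47.6 in Control, and Rpl13a had 819 ± 33.5 in OIO and 776 ± 93.5 in Control. Rplp1 had 838 ± 38.2 CPM per kilobase in OIO and 655 ± 40.6 in Control. The Control libraries of Rpl41 and Rpl13a overlapped on this scale, while in OIO those of Rpl41 were all higher, so the order below Rps24 differed between the groups. The lowest members above 1 CPM were Rps20, Rpl27 and Rpl22, at 47.7, 49.8 and 52.4 CPM per kilobase over all 6 libraries. The place of Rps20 rests on its annotated length of 3706 bases, the longest of the members. Before division by length it had a mean of 179 CPM in OIO and 175 CPM in Control. Whether the islet transcript has that length was not tested. Across the 73 members the log2 fold change had a Spearman correlation of -0.06 with transcript length, 0.04 with the share of 31-base words found in other genes and -0.08 with the mean Control level, all from the same 6 libraries and given as a description. The median share of such words was 44.9% in the 15 genes that rose and 45.95% in the 60 that did not pass.

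The authors' deposited table of their own comparison lists the same 75 members. In it, 9 have an adjusted p under 0.05 with a positive log2 fold change and none with a negative one, beside 3.96% of its 14903 genes that are positive and past that threshold. All 9 were among the 15 here, and the sign was the same in 75 of 75 members. The authors' deposited table gives 0.41 for Rplp0 (adjusted p = 0.0051), 0.44 for Rps2 (adjusted p = 0.0066) and 0.45 for Rpl41 (adjusted p = 0.0098).

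Of the ribosomal proteins outside the symbol rule, Gnb2l1 rose, and Fau and Rps3a1 did not pass. Gnb2l1, the older symbol of Rack1, a signalling scaffold on the head of the small subunit, had 361, 369 and 363 CPM in OIO and 288, 320 and 323 CPM in Control, and rose by 0.23 on the log2 scale (SE 0.06, edgeR adjusted p = 0.044). Its values were separate between the groups, and with a library left out it passed in 1 of 6 fits. Fau, a fusion of a ubiquitin-like protein with a small subunit protein, had a log2 fold change of 0.10 (edgeR adjusted p = 0.34). Rps3a1 had 297, 292 and 286 CPM in OIO and 289, 334 and 345 CPM in Control, a log2 fold change of -0.15 (SE 0.07, edgeR adjusted p = 0.24). With a library left out, Rps3a1 ranged from -0.22 without Control replicate 1 (edgeR adjusted p = 0.047) to -0.10 without Control replicate 3 (edgeR adjusted p = 0.47), and it passed in 1 of these 6 fits and in none of the 11 other settings.

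None of the 3 paralogs of ribosomal protein genes that were tested passed, too few to set beside the 4.54% of all genes called higher. Rpl36al had a log2 fold change of 0.10, Rpl22l1 of 0.01 and Rpl7l1 of -0.02, the last of these a factor of ribosome assembly rather than a ribosomal protein, and the signs of Rpl22l1 and Rpl7l1 depended on the setting. The muscle paralog Rpl3l and the testis paralog Rpl10l had no count in any library, and Rpl39l had 0 to 2 counts.

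Other genes of translation were grouped by lists. Of 23 elongation factors and other genes with TOP mRNAs, 3 rose (13.0%, beside 4.54% of all genes) and none fell, with a median log2 fold change of 0.11. Pabpc1, the main cytoplasmic poly(A)-binding protein, had 389, 361 and 373 CPM in OIO and 307, 310 and 276 CPM in Control, a log2 fold change of 0.33 (SE 0.06, edgeR adjusted p = 0.013), and it passed whichever library was left out. Eef1d, a subunit of the exchange factor of elongation factor 1, rose by 0.28 (edgeR adjusted p = 0.018) and Pabpc4 by 0.29 (edgeR adjusted p = 0.022), passing in 3 and 2 of the 6 such fits. Eef1a1, which brings the aminoacyl-tRNA to the ribosome, had 3112, 2965 and 3112 CPM in OIO and 2693, 2677 and 2692 CPM in Control, a log2 fold change of 0.19 that did not pass (edgeR adjusted p = 0.062). The number of genes in this list that rose was 1 to 8 over the settings run. A further list held 30 genes listed as initiation factors, Eif5a among them by its name alone. Of these, 2 rose (6.67%, beside 4.54% of all genes) and 1 fell (3.33%, beside 2.84%), shares near those of all genes. Eif3i rose by 0.24 (edgeR adjusted p = 0.034), Eif5a rose by 0.22 (edgeR adjusted p = 0.048) and Eif1, which keeps the scanning subunit from starting at the wrong codon, fell by 0.21 on the log2 scale (edgeR adjusted p = 0.049). With a library left out, none of the 30 passed in 4 of the 6 fits, those without Control replicate 1 or without any of the OIO replicates, and 1 passed in each of the others.

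Of 67 genes that assemble ribosomes in the nucleolus, 4 fell (5.97%, beside 2.84% of all genes), none rose (beside 4.54%) and 63 did not pass. Their median log2 fold change was -0.06, and 21 of the 67 lay above 0. Wdr43, a subunit of the complex that processes the small subunit rRNA precursor, had 39.2, 39.3 and 39.2 CPM in OIO and 47.2, 49.6 and 50.1 CPM in Control, a log2 fold change of -0.32 (SE 0.05, edgeR adjusted p = 0.0083), and it passed whichever library was left out. Ddx21, a nucleolar RNA helicase, had 54.2, 54.6 and 55.7 CPM in OIO and 63.8, 65.3 and 71.2 CPM in Control, a log2 fold change of -0.28 (SE 0.06, edgeR adjusted p = 0.018). Both were separate between the groups. Riok2, a kinase of small subunit maturation, fell by 0.26 on the log2 scale (edgeR adjusted p = 0.045), and Rrp1b, a nucleolar processing factor, by 0.27 (edgeR adjusted p = 0.0498). With a library left out, 1 to 2 of the 67 fell, beside 112 to 303 of the 15022 to 15121 genes tested. With scaling by library totals alone 12 fell, beside 1113 of all 14903 genes, and that scaling moved the median of all genes to -0.08. None of the 15 genes of RNA polymerase I and its factors passed, beside 4.54% of all genes called higher and 2.84% called lower. With 15 genes these shares cannot be told apart. The nearest was Twistnb at -0.30 (edgeR adjusted p = 0.068), and 1 of the 15 was called lower with library totals.

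Of 19 regulators of TOP mRNAs and mTORC1 none passed, with a median of 0.02. Of all genes, 4.54% were called higher and 2.84% lower, and with 19 genes these shares cannot be told apart. Eif4ebp1, which holds back the cap-binding factor until mTORC1 phosphorylates it, had 15.5, 11.7 and 15.5 CPM in OIO and 9.18, 12.1 and 9.81 CPM in Control, a log2 fold change of 0.45 (SE 0.14, edgeR adjusted p = 0.080). The groups overlapped by OIO replicate 2. Akt1s1, a subunit of mTORC1, had a log2 fold change of 0.20 (edgeR adjusted p = 0.083), Larp1, which binds the TOP run, 0.15 (edgeR adjusted p = 0.19) and Mtor -0.12 (edgeR adjusted p = 0.29). The proteins of the mitochondrial ribosome, a separate set of 75 genes, had a median log2 fold change of 0.06. Of these, 2 rose (2.67%), which were Mrps21 (log2 fold change 0.30, edgeR adjusted p = 0.032) and Mrpl14 (0.39, 0.033), named after their values were seen, and none fell. The share that rose was below the 4.54% of all genes, and neither gene passed with library totals, with the length offset or in 5 of the 6 fits with a library left out. With scaling by library totals alone the medians of the initiation factors, the regulators and the mitochondrial ribosome were -0.04, -0.05 and -0.0015, so their signs depended on the scaling.

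**Figure D5:**
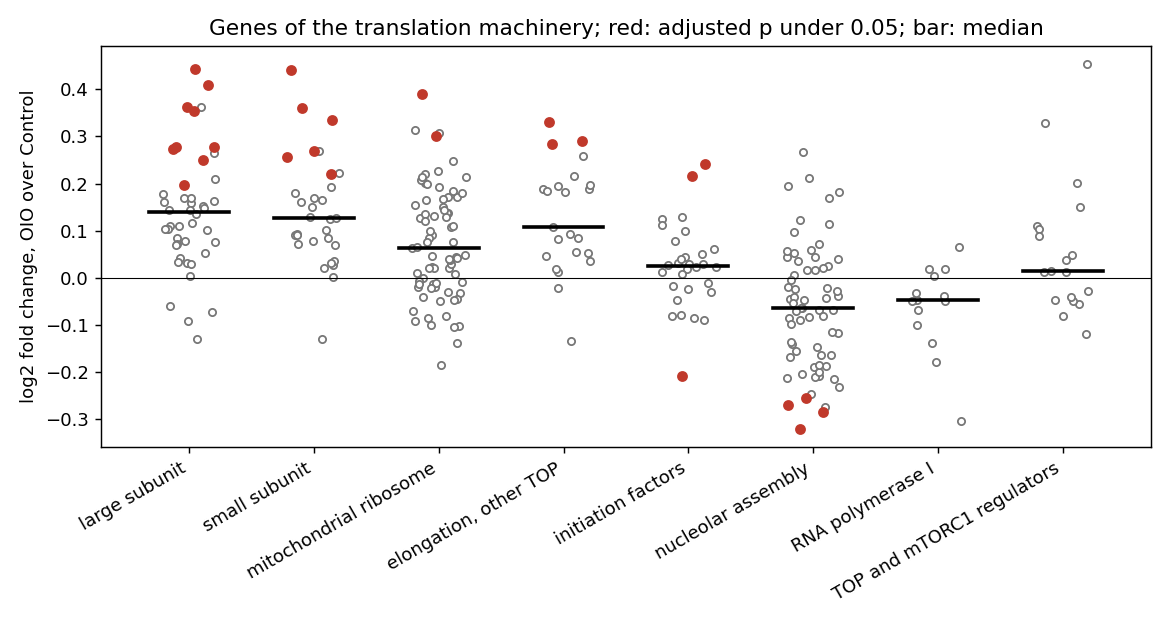
Log2 fold change of OIO over Control (y axis) for each tested gene of the large and small cytosolic subunits, the mitochondrial ribosome and 5 lists of translation genes, with the median as a bar and genes past an adjusted p of 0.05 in red. The cytosolic subunits have medians of 0.14 and 0.13, and the nucleolar assembly genes have a median of -0.06 with 4 genes past the threshold, all below 0.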

How the data were processed

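Poly(A) RNA of pancreatic islets was sequenced in 3 OIO and 3 Control libraries, made with an Illumina TruSeq kit per the labels' protocols. The authors deposited whole-number counts per gene symbol with no normalization. The submitters' processing notes name bcl2fastq, kallisto, limma, GRCm38 and mm10, and how they became counts per symbol is not given in those sources. Reads from near-identical copies could be split between genes, and the transcript index used is not given. A second deposited table holds the authors' log2 fold changes and average log2 expression, raw and adjusted p-values, and the moderated statistic and log odds as a score per gene. Its columns have limma's names per the file headers, and its direction is not stated.

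Column codes carry an additional 0 against the labels and were matched by number. Replicate numbers follow accession order and only name libraries. Counts were fitted with edgeR 4.0.16 in R 4.3.3 (filterByExpr, TMM scaling, robust quasi-likelihood test with group as the only term), leaving 4 residual degrees of freedom, and p-values were adjusted after Benjamini and Hochberg over 14903 genes at a threshold of 0.05. The biological coefficient of variation was 10.4%. The SE was obtained from the fold change and the F statistic (size of the log2 value over the root of F). CPM uses TMM-scaled library sizes, with factors of 0.955 to 0.996 in OIO and 1.01 to 1.04 in Control. With 3 libraries a group, exact permutation allows no 2-sided p below 0.1, so none was used. The fit was tested on simulated data. Alternatives used DESeq2 1.42.0, limma 3.58.1 (voom), other scalings and filters, a length offset (a length was known for 98.4% of symbols), the counts of 6 processed copies (0 to 40 counts each) added to their parents, and each library left out.

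Members and lists were chosen with earlier results of these data known. The lists describe, and no list was tested. Named were members past the threshold, in each subunit the 3 nearest to it, the 3 with the highest level and the 2 with the lowest fold change, the stalk proteins, Rpsa, Rps27 and Rps27l, members removed by the filter, ribosomal proteins and paralogs outside the rule, and up to 4 genes of lowest p in each other list. Rpl5, Rpl11, Rpl35, Rpl36a, Rpl39, Rps3 and the groupings by place in the ribosome or on the X chromosome were added after values were seen. Shared 31-base words, lengths and gene positions came from GENCODE M21 on GRCm38, and start windows from RefSeq on GRCm38.p6. Intervals for counts of 0 cover counting error only. Values of a few single genes are not reported here, nor drawn by name, though they count in every total.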

Additional observations from a re-analysis of the deposited data

How the results depend on the processing

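No paired analysis was possible because the labels carry no replicate numbers shared by the groups. No member was called lower in any setting. The separation of the groups without Control replicate 1 was added after seeing the data. Ribosomal protein genes called were 15, and 7 with library totals alone, 10 without robust estimation, 9 with the length offset, 22 with DESeq2 and 6 to 16 leaving out a library. Of all genes, 4.54% were called higher in the main fit, 3.34% with library totals alone and 4.13% without robust estimation. That share was 4.56% with the length offset and 6.14% with DESeq2. DESeq2 called the 15 and others, among them Rpl12, Rpl18, Rpl31, Rpl35, Rpl4 and Rpsa. Large subunit calls were 9, and 5 with library totals, 14 with DESeq2 and 5 to 8 leaving out a library. Small subunit calls were 6, and 2 with library totals, without robust estimation or with the length offset, 4 with voom, 8 with DESeq2 and 1 to 8 leaving out a library. Subunit medians were 0.072 to 0.173 (large) and 0.056 to 0.185 (small) leaving out a library. The median of all members was 0.130, and 0.064 with library totals alone and 0.089 with the length offset. With the length offset 80.0% of the members lay above 0, beside 49.2% of all genes. All genes called were 460 to 817 leaving out a library, against 676 higher and 423 lower with all 6. Fewer libraries enter those fits, and otherwise the cause was not tested.

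Signs turned for genes near 0, given as log2 fold changes. With library totals, Rpl10 was -0.061, Rps10 -0.063, Rps4x -0.035 and Rpl22l1 -0.057, and with the length offset they were -0.043, -0.047, -0.0020 and -0.053. Leaving out a library, Rpl10 ranged from -0.055 to 0.052, Rps10 from -0.097 to 0.063, Rps4x from -0.015 to 0.067, Rplp2 from -0.046 to 0.212, Rpl22l1 from -0.058 to 0.145, Rpl7l1 from -0.052 to 0.037, Rpl30 from -0.310 to 0.089 and Rps27 from -0.320 to 0.129. Rpl26, Rpl34, Rpl30 and Rps27 had at most 32 counts in a library, and the cause was not tested.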
